A study of Mus musculus with 14 samples.

Results

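Megakaryocytes, which shed platelets, and erythroid cells, which become red cells, arise from shared progenitors and are specified by an overlapping set of transcription factors. The set described here was Gata1, Gata2, Zfpm1, Klf1, Tal1, Nfe2, Gfi1b, Fli1, Lmo2 and Runx1. They were chosen by name for their known role in these lineages, with earlier results of these data known. All 10 were found among the 55487 genes of the deposited tables. GATA1 is the zinc-finger factor that both lineages need, and FOG1, the product of Zfpm1, is its cofactor and does not bind DNA itself. GATA2 acts earlier, in stem and progenitor cells, and also in mast cells and basophils. TAL1 binds DNA with E proteins and is joined to GATA factors by the bridging protein LMO2. KLF1 activates globin and other red-cell genes, GFI1B is a transcriptional repressor that both lineages require, NFE2 drives platelet formation, and RUNX1 and the ETS factor FLI1 act in stem cells and megakaryocytes. Loss of GATA1 or FOG1 blocks both lineages, and KLF1 and FLI1 are known to oppose each other in the choice between them.

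RNA sequencing was performed on sorted bone marrow cells of mice with myeloproliferative neoplasm to ask how chronic IL-1β, an inflammatory cytokine, affects hematopoietic stem and progenitor cells. Marrow of C57BL/6 mice carrying Mx1Cre and 1 Jak2V617F knock-in allele (Mx1Cre; Jak2 VF/+), a model that develops polycythemia vera, had been transplanted into lethally irradiated C57BL/6 hosts, which then received PBS or IL-1β (0.5 μg per dose, intraperitoneally, 3 doses per week for 16 weeks). LSK cells (Lin-Sca1+c-kit+), enriched for stem cells, and LK cells (Lin-c-kit+, named MP(LK) in the labels), mostly committed myeloid, erythroid and megakaryocytic progenitors, were sorted, with 3 PBS and 2 IL-1β libraries of each. Bone marrow mesenchymal stromal cells (MSC) of wild-type C57BL/6 mice, cultured for 21 days and then kept for 72 h with PBS or with 5 ng/ml of the cytokine, with 2 libraries per treatment, served for comparison. Per the paper, the donor mice had been induced with pI-pC, which activates Mx1Cre in blood cells and in other tissues, before transplantation. Every sorted library carries the mutant allele, and no sorted library comes from wild-type mice. The labels do not say how many mice or cultures a library holds, so p-values measure the spread between these libraries, which may in part be technical.

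PBS libraries of sorted cells held 12172400 to 18544346 counted read pairs and IL-1β libraries 4393233 to 8641124, so that depth and treatment cannot be told apart. The 10 factors were deeply covered in sorted cells, with at least 62 read pairs each in every library. Ly6a, which encodes Sca1, the marker that the LSK gate adds, stood at 34.1 ± 6.81 CPM (SD, n = 3) in LSK and at 0.589 ± 0.289 CPM (SD, n = 3) in LK PBS libraries. The MSC libraries had summed macrophage markers of 8641 to 14104 CPM and summed mesenchymal markers of 2279 to 4991 CPM, sums that are not scaled by gene length. RNA of both was thus present in these cultures, and Kit was at 3.00 CPM or lower. LSK PBS replicate 2 stood apart: 3671 and 3755 genes were over 2-fold from replicates 1 and 3, which differed from each other at 1302 genes. Levels are given as CPM, read pairs scaled to library size with TMM normalization, over the 10 sorted libraries together and over MSC apart.

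All 10 are protein-coding genes, and their whole spans on GRCm38 (Ensembl) are given here. Gata1 lies at chrX:7959260-7978071 on the minus strand, Gata2 at chr6:88193891-88207032 on the plus strand and Zfpm1 at chr8:122282141-122337251 on the plus strand. Klf1 lies on the same chromosome at chr8:84901928-84905295 (plus). Tal1 lies at chr4:115056426-115071755 (plus), Nfe2 at chr15:103248212-103258403 (minus), and Gfi1b and Lmo2 at chr2:28609450-28621982 (minus) and chr2:103957986-103981878 (plus). Fli1 lies at chr9:32422204-32542861 (minus) and Runx1 at chr16:92601466-92826149 (minus). The windows upstream of their start sites were read for GATA letters because 5 of the factors fell together in the LK comparison given below. RefSeq promoters (GRCm38.p6) were matched for 7 of the 10 genes, with 10 start sites in all, and the 250 bases upstream of each were searched on both strands. A GATA match was AGATAA or AGATAG or TGATAA or TGATAG. It was found in 3 of the 10 windows, against 26.5% of 32851 windows of all genes. The match started at 80 bases upstream of the RefSeq start of Klf1, at 205 bases upstream of 1 of 2 starts of Tal1, and at 120 bases upstream of the start of Gfi1b. Those windows are shown 5′ to 3′ on the gene's strand, with the match in capitals (Klf1, chr8:84901732-84901927, plus strand, ended before the Ensembl start of the gene; Tal1, chr4:115056176-115056425, plus strand; Gfi1b, chr2:28621983-28622232, minus strand).
Klf1: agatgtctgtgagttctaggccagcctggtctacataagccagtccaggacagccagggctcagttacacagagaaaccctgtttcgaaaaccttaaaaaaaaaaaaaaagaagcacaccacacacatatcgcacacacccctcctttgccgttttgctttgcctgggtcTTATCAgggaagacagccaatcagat
Tal1: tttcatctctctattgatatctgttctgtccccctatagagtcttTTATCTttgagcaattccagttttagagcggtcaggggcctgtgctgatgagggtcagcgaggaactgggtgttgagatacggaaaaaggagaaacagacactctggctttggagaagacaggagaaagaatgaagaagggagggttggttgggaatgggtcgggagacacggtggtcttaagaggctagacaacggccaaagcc
Gfi1b: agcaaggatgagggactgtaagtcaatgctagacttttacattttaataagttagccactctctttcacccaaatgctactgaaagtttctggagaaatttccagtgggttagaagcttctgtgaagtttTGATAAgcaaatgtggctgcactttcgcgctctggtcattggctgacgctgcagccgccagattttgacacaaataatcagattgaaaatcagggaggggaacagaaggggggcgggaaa
The windows of Gata1, Gata2, Zfpm1 and Runx1 held none of these GATA letters. A RUNX match (TGTGGT or TGCGGT) was found in 1 window, that of Klf1, against 18.6% of all windows. KLF1 letters (CCACACCC or CCGCACCC or CCCCACCC) were found in 2, those of Gata1 and of 1 Runx1 start, against 13.1%. RUNX letters and KLF1 letters read on the other strand share bases and can overlap, and a match is a description of the window and no evidence of binding.

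The factors were first compared between the populations under PBS, where the libraries of LSK and LK cells overlapped for none of the 10. Gata1, Zfpm1, Klf1, Tal1 and Gfi1b were higher in LK cells, and Gata2, Nfe2, Lmo2, Runx1 and Fli1 were higher in LSK cells. All 10 were called (edgeR's quasi-likelihood test on the 10 sorted libraries, with a Benjamini-Hochberg adjusted p below 0.05 and a change beyond 0.5 in either direction on the log2 scale), 5 in each direction. Over 13839 genes tested, 12.4% were called higher and 19.4% lower in LK cells, and 48% had libraries that did not overlap. Klf1, the red-cell activator, stood at 38.9, 43.2 and 28.0 CPM in LSK and at 389.6, 317 and 285 CPM in LK cells. Every LK library was thus far above every LSK library, and the log2 fold change of LK over LSK was 3.17 ± 0.37 (SE, adjusted p = 0.000112), the largest of the set. Gata1 stood at 51.6, 60.9 and 59.6 CPM in LSK and at 234, 222 and 205 CPM in LK cells (log2 fold change 1.94 ± 0.18, adjusted p = 2.9e-05). Gfi1b stood at 67.4, 41.8 and 44.8 CPM in LSK against 209, 166 and 122 CPM in LK cells (1.69 ± 0.23 on the log2 scale, adjusted p = 0.000271). Tal1 and Zfpm1 differed less, by 0.61 ± 0.15 and 0.78 ± 0.24 on the log2 scale (adjusted p = 0.00832 and 0.0264).

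Among those lower in LK cells, Fli1 had the largest difference. Its level was 107, 40.7 and 96.4 CPM in LSK and 23.2, 21.5 and 37.8 CPM in LK cells, so that LSK replicate 2 lay just above the LK libraries (log2 fold change -1.56 ± 0.33, adjusted p = 0.00403). Nfe2 stood at 230, 325 and 259 CPM in LSK and at 135, 107 and 160 CPM in LK cells (-1.02 ± 0.20, adjusted p = 0.00235). Gata2, the GATA factor of earlier cells, stood at 328, 274 and 285 CPM in LSK and at 149.6, 139.7 and 157 CPM in LK cells (-0.99 ± 0.18, adjusted p = 0.00152). Gata1 and Gata2 were thus opposite in their order between the populations. Lmo2 and Runx1 were lower in LK cells by 0.74 ± 0.19 and 0.80 ± 0.21 on the log2 scale (adjusted p = 0.0104 and 0.0132). With 1 of the 6 PBS libraries left out, 7 to 10 of the 10 were still called. Zfpm1 lost its call without any 1 of the LK PBS replicates (adjusted p = 0.0922, 0.0527 and 0.0543), Tal1 and Runx1 without LK replicate 1 (0.0507 and 0.0638), Lmo2 without LK replicate 2 (0.0514) and Runx1 without LSK replicate 1 (0.0964).

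**Figure D1:**
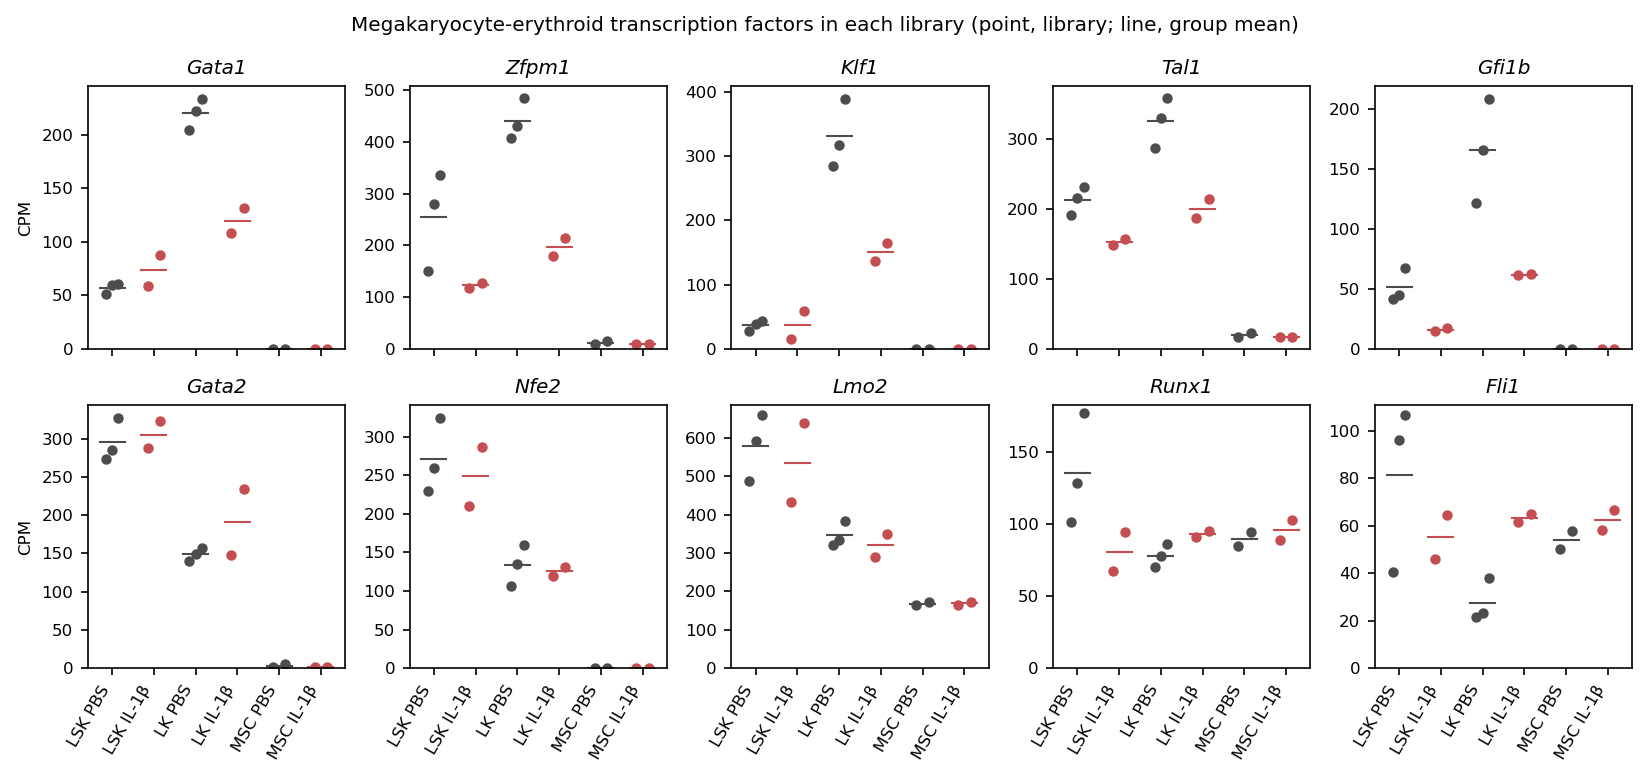
Each panel plots 1 factor in CPM (linear axis from 0) for the 14 libraries, with a point per library, a line at the group mean, PBS in grey and IL-1β in red. The upper row holds the 5 factors that were higher in LK than in LSK cells under PBS, all with both LK IL-1β points under the 3 LK PBS points, and in MSC Gata1, Klf1, Gfi1b and Nfe2 lie at or near 0.

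Levels of the factors were ordered against each other only per length, as CPM per kilobase of exon. In LSK PBS libraries Lmo2 was at the head with 268 ± 40.4 CPM per kb (SD, n = 3), followed by Nfe2 with 90.8 ± 16.3 and Zfpm1 with 73.1 ± 27.2, and these latter 2 did not differ beyond their spread. The low end of LSK cells was crowded, since Gfi1b, Klf1, Gata1 and Fli1 had means of 23.3 to 28.1 CPM per kb with overlapping ranges of SD, above Runx1 with 11.3. In LK PBS libraries Klf1 was at the head with 216 ± 34.9 CPM per kb (SD, n = 3), ahead of Lmo2 with 160 ± 14.9 and Zfpm1 with 125.9 ± 11.2. Gfi1b and Gata1 followed with 90.5 ± 23.7 and 90.3 ± 6.02 CPM per kb, which are not separable, then Tal1 with 74.4 ± 8.30. Nfe2 (44.9 ± 8.97), Gata2 (27.6 ± 1.61), Fli1 (7.90 ± 2.58) and Runx1 (6.51 ± 0.658) closed the order in CPM per kb. The length counted all exonic bases of a gene, 12025 for Runx1 against 1534 to 5398 for the others, which lowers the place of Runx1. With IL-1β, Lmo2 and not Klf1 had the highest mean in LK cells, at 148 ± 19.5 against 98.3 ± 13.4 CPM per kb (SD, n = 2).

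IL-1β was next compared with PBS in LK cells, where 5 factors fell and 1 rose. Gata1, Zfpm1, Klf1, Tal1 and Gfi1b, the same 5 that were higher in LK than LSK cells under PBS, were called lower, and Fli1 was called higher. Of 12835 genes tested, 2.57% were called lower and 6.77% higher. The median log2 fold change of the 10 factors was -0.41, against -0.03 over all genes tested. This comparison and that of LK with LSK cells under PBS share the 3 LK PBS libraries, which makes their directions dependent on each other.

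Gfi1b stood at 61.7 and 62.4 CPM with IL-1β, below the 122 to 209 CPM of the PBS libraries (log2 fold change -1.41 ± 0.22 SE, adjusted p = 0.0113). It was 2.67-fold lower, the largest fall of the set. Zfpm1 stood at 484, 407 and 431 CPM with PBS and at 180 and 214 CPM with IL-1β. The difference in this GATA1 cofactor was -1.16 ± 0.12 on the log2 scale, or 2.23-fold (adjusted p = 0.00198). Klf1 stood at 136 and 165 CPM with IL-1β, below all its PBS libraries by 2.19-fold on average (-1.13 ± 0.16, adjusted p = 0.00554). Gata1 fell from 205 to 234 CPM with PBS to 108 and 131 CPM with IL-1β (-0.88 ± 0.12, adjusted p = 0.00481). Tal1 fell the least of the 5, from 359, 331 and 287 CPM to 187 and 214 CPM (-0.70 ± 0.12, adjusted p = 0.0116). In each of these 5 the lowest PBS library was above the highest IL-1β library, as was so for 22.4% of all genes tested.

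Fli1 went the other way: it stood at 64.8 and 61.8 CPM with IL-1β, above the 21.5 to 37.8 CPM of PBS libraries (log2 fold change 1.21 ± 0.24, adjusted p = 0.0214). Runx1 also had both IL-1β libraries, at 95.4 and 91.2 CPM, above the 70.3 to 86.2 CPM of PBS, but by 0.26 ± 0.12 on the log2 scale, which did not pass the test (adjusted p = 0.219). Both IL-1β libraries were above all PBS libraries for 23.4% of genes. Lmo2 and Nfe2 gave -0.11 ± 0.12 and -0.09 ± 0.16 on the log2 scale, with overlapping libraries (adjusted p = 0.614 and 0.771). Gata2 stood at 234 CPM in IL-1β replicate 1 and at 148 CPM in replicate 2, against 139.7 to 157 CPM with PBS. Only the former was above the PBS libraries, and the difference of 0.36 ± 0.18 on the log2 scale did not pass the test (adjusted p = 0.263), and was -0.02 without that library.

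All 6 calls in LK cells depended on IL-1β replicate 1, and 3 of them also on replicate 2. Without IL-1β replicate 1 none of them was called (adjusted p from 0.0564 to 0.201, log2 fold changes -0.62 to -1.42 and, for Fli1, 1.16), and without replicate 2 only Gata1, Zfpm1 and Klf1 were, where the lone remaining library was taken to vary like those of the other group. Fli1 was also lost without PBS replicate 1 or 2 (adjusted p = 0.0707 and 0.0668). In the joint fit of the 10 sorted libraries, used for the comparisons between populations, 4 of the 6 were called, without Klf1 (adjusted p = 0.179) and Fli1 (0.108).

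**Figure D2:**
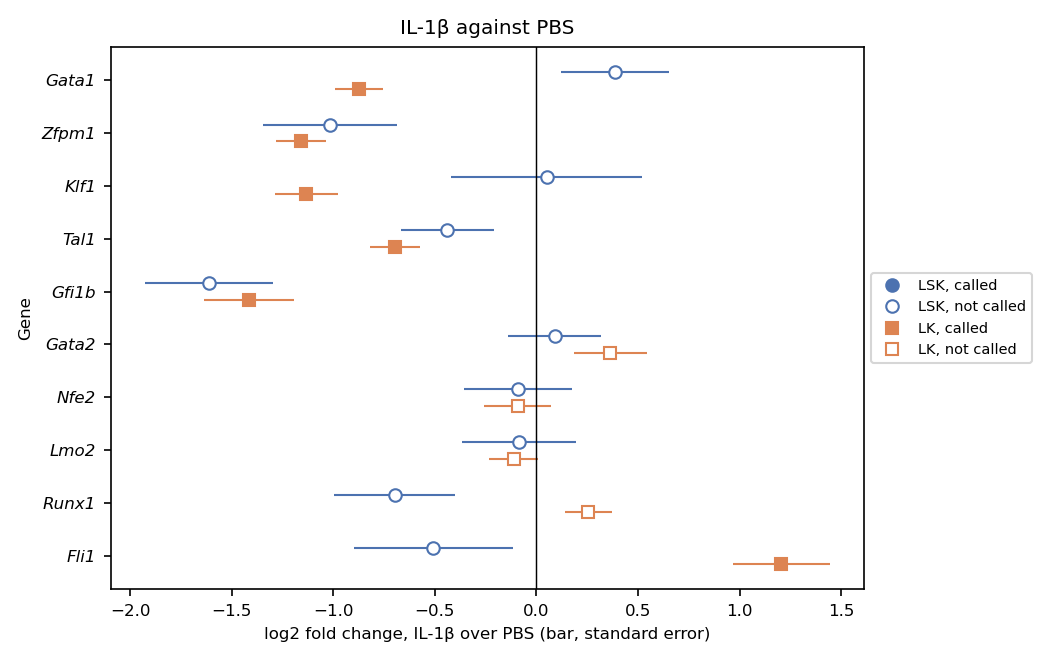
Log2 fold change of IL-1β over PBS (horizontal axis) for each factor (vertical axis) in LSK (blue circles) and LK cells (orange squares), with bars for the standard error and filled symbols for called genes. The 5 filled squares on the left run from -1.41 for Gfi1b to -0.70 for Tal1, Fli1 lies on the right at 1.21, and no circle is filled.

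In LSK cells none of the 10 factors was called with IL-1β (edgeR), although 4 of them, Gfi1b, Zfpm1, Runx1 and Tal1, were lower in both IL-1β libraries than in every PBS library, an order seen in 22.8% of the 13132 genes tested. The share of all genes that was called was 0.632%. At an unadjusted p under 0.05, 3 factors were lower, Gfi1b, Zfpm1 and Runx1, and none was higher, where 10.5% of all genes were lower. DESeq2 called 1 factor, Gfi1b (adjusted p = 0.000691), and limma-voom none. With edgeR, the joint fit of 10 libraries and the fit with no filter on low counts each called 2, Gfi1b and Zfpm1, and the fit with a replicate block called Gfi1b. The biological coefficient of variation that edgeR estimated was 0.377 for LSK libraries, against 0.183 for LK libraries.

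Gfi1b stood at 17.3 and 15.2 CPM with IL-1β and at 67.4, 41.8 and 44.8 CPM with PBS in LSK cells. The level was 3.05-fold lower, against 2.67-fold in LK cells. Its log2 fold change of -1.61 ± 0.32 missed the threshold (adjusted p = 0.0607). Of the 5 fits without 1 library, 2 called Gfi1b. These were the fits without LSK PBS replicate 2, the library that stood apart (adjusted p = 0.0366), and without PBS replicate 3 (0.0462). The other fits did not call it, and over all 5 the log2 fold change ran from -1.73 to -1.38. Zfpm1 stood at 117 and 128 CPM with IL-1β against 337, 151 and 279.7 CPM with PBS. PBS replicate 2 was the lowest of the PBS libraries. Without it the log2 fold change of -1.02 ± 0.33 (adjusted p = 0.166) became -1.26 and was called (adjusted p = 0.0366). That was the only 1 of the 5 fits without 1 library that called Zfpm1, with log2 fold changes from -1.26 to -0.77. Runx1 stood at 94.5 and 67.2 CPM against 177, 101 and 129 CPM (-0.70 ± 0.30, adjusted p = 0.255). Tal1 stood at 149 and 157 CPM against 216, 232 and 191 CPM (-0.44 ± 0.23, adjusted p = 0.331). In the same LSK libraries the summed stem cell markers were 369 to 509 CPM with PBS and 189.9 to 209.9 CPM with IL-1β, with 8 of 10 genes tested below 0 and a median log2 fold change of -0.86. The summed endothelial list was 305 to 364 CPM with PBS and 175 to 187 CPM with IL-1β, with 8 of 8 genes below 0 and a median of -1.17. Under PBS both lists were lower in LK than in LSK cells. This held for 9 of 10 stem cell genes (median log2 fold change -3.42) and 8 of 8 endothelial genes (-2.46). The part of the shifts of both lists with IL-1β in the values of Gfi1b, Zfpm1, Runx1 and Tal1 was not tested.

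Gata1 and Klf1, which fell in LK cells, did not show a lower level in LSK cells. Gata1 stood at 59.0 and 88.0 CPM with IL-1β against 51.6 to 60.9 CPM with PBS (log2 fold change 0.39 ± 0.27, adjusted p = 0.459). Klf1 differed widely between the IL-1β libraries, at 16.2 CPM in replicate 1 and 59.1 CPM in replicate 2, which lay below and above the 28.0 to 43.2 CPM of PBS. Its log2 fold change of 0.05 ± 0.47 (adjusted p = 0.966) turned to -1.11 without replicate 2. The summed erythroid genes were 698 CPM in the same replicate 1 and 1110 CPM in replicate 2, against 991 to 1238 CPM with PBS, and their part in the result was not tested. Gata2, Nfe2 and Lmo2 differed by 0.09 at most on the log2 scale and Fli1 by -0.51 ± 0.39, all with overlapping libraries.

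The difference between the responses of LK and LSK cells was tested itself, as an interaction over the 10 libraries. None of the 10 factors was called by edgeR, where 4 of 13839 genes (0.0289%) were. At an unadjusted p under 0.05 there were 3: Gata1, whose response was lower in LK cells, and Fli1 and Runx1, whose response was higher, against 4.68% of all genes lower and 9.54% higher. The log2 difference of the responses was -1.23 ± 0.28 for Gata1 (adjusted p = 0.129), 1.76 ± 0.52 for Fli1 (0.204) and 1.00 ± 0.34 for Runx1 (0.241), where the median over all genes was 0.12. Klf1 had -1.14 ± 0.55 (adjusted p = 0.372), a value that was 0.04 without LSK IL-1β replicate 2. For Gfi1b, Zfpm1 and Tal1 the differences were 0.24 ± 0.37, -0.10 ± 0.38 and -0.22 ± 0.24, so that the responses of the 2 populations were not separable for them. DESeq2 called the difference for Gata1 (adjusted p = 0.00389) and limma-voom for none. Without LSK IL-1β replicate 1, Gata1 and Klf1 were called (adjusted p = 0.0366 and 0.0387), and without LSK PBS replicate 2, Gata1 and Fli1 (0.0446 and 0.0360).

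After IL-1β the order between the populations was partly kept. LK libraries did not overlap LSK libraries for 8 of the 10 factors, against 56.9% of all genes, and Fli1 and Runx1 were those that overlapped. In this contrast 3 factors were called, Klf1 (log2 fold change of LK over LSK 2.04 ± 0.45, adjusted p = 0.0251) and Gfi1b (1.93 ± 0.30, adjusted p = 0.00532) as higher and Nfe2 (-0.99 ± 0.24, adjusted p = 0.0429) as lower in LK cells, where 2.27% of all genes were called higher and 2.13% lower. Gata1 gave 0.71 ± 0.22 on the log2 scale (adjusted p = 0.0863), against 1.94 under PBS. With 1 IL-1β library left out its value ran from 0.51 to 1.01, and 1 of these 4 fits called it. Fli1 gave 0.19 ± 0.41 and Runx1 0.20 ± 0.26 (adjusted p = 0.822 and 0.693), against -1.56 and -0.80 under PBS. Leaving out 1 IL-1β library left 1 to 3 calls. Klf1 lost its call without LK IL-1β replicate 1 or 2 (adjusted p = 0.0748 and 0.157), and Nfe2 without any 1 of the 4 IL-1β libraries (0.0528 to 0.358). Gfi1b was called in each of these 4 fits. It missed the threshold with limma-voom (adjusted p = 0.0506), as did Nfe2 (0.0970), and Klf1 missed it in the fit of IL-1β libraries alone (0.0544). Groups held 2 libraries here and 3 under PBS.

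**Figure D3:**
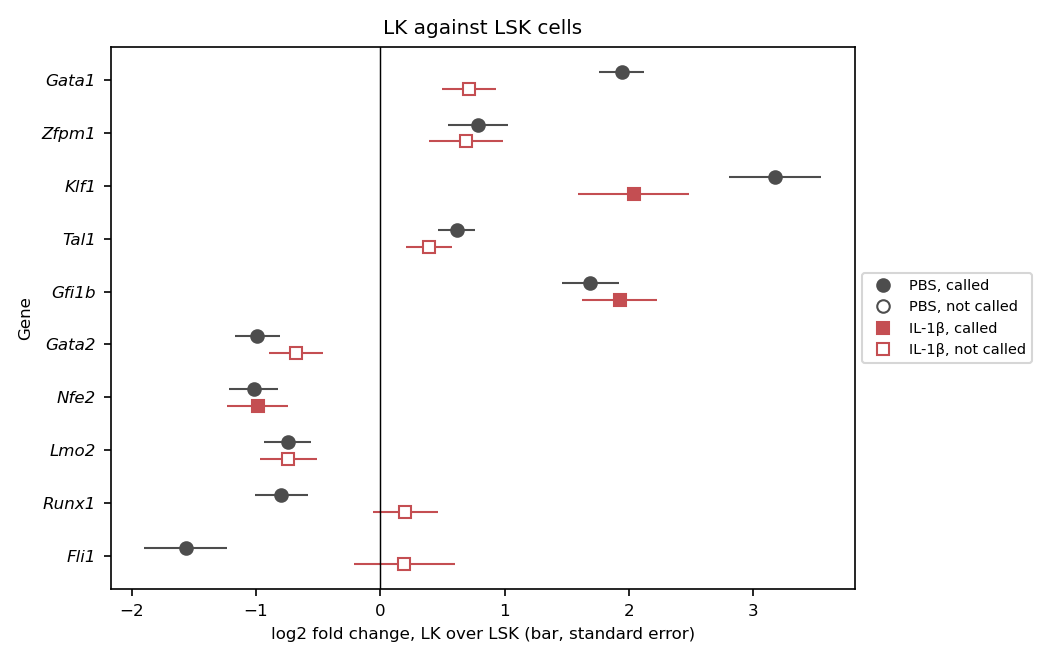
Log2 fold change of LK over LSK cells (horizontal axis) for each factor (vertical axis) under PBS (grey circles) and under IL-1β (red squares), with bars for the standard error and filled symbols for called genes. Under PBS the upper 5 factors lie right of 0 and the lower 5 left of it, and under IL-1β Gata1 lies at 0.71 and Runx1 and Fli1 at 0.20 and 0.19.

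Partners and target genes of these factors were counted on lists that were chosen with earlier results of these data known. Of 26 partners and related factors, all tested in LK cells, 2 passed the test as higher and 5 as lower (median log2 fold change -0.21), beside 6.77% and 2.57% of all genes. The 2 higher calls are close to the share of all genes. Ets1, an ETS factor like FLI1, had the largest rise, from 4.74 to 10.1 CPM with PBS to 33.6 and 49.8 CPM with IL-1β (2.60 ± 0.32, adjusted p = 0.00481). Bcl11a, a repressor of fetal globin, fell from 181 to 213 CPM to 115 and 121 CPM (-0.75 ± 0.10, adjusted p = 0.00518). Ldb1, which forms a complex with LMO2, TAL1 and GATA1, fell by 0.66 ± 0.13 on the log2 scale (adjusted p = 0.0168). The other calls were Bach1 (0.56) as higher and Ssbp3 (-0.64), Tcf3 (-0.54) and Mafk (-0.50) as lower, in log2 fold change. In LSK cells 0 of the 26 were called, where 0.632% of all genes were, with a median of -0.39 and 22 below 0. Erg, an ETS factor of stem cells, had the smallest p there (-1.39 ± 0.33, adjusted p = 0.0875).

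Of 20 erythroid genes, all tested in LK cells, 20 had a log2 fold change below 0 with IL-1β, with a median of -0.69. Of these, 6 were called lower and none higher, beside 2.57% and 6.77% of all genes. Aqp1, a water channel of red cells, stood at 958 to 1182 CPM with PBS and at 412 and 497 CPM with IL-1β (-1.20 ± 0.14, adjusted p = 0.00305). Car2, a carbonic anhydrase, fell by 1.12 ± 0.20 and Epor, the erythropoietin receptor, by 0.98 ± 0.21 on the log2 scale (adjusted p = 0.0135 and 0.0306). Ank1 (-0.97), Ermap (-0.85) and Car1 (-0.57) were the other calls, in log2 fold change. The list was higher in LK than in LSK cells under PBS, with 20 of 20 genes called (median 3.43), and 13 of 20 under IL-1β. Of all genes, 12.4% were called higher in LK cells under PBS and 2.27% under IL-1β. In LSK cells 0 of 17 erythroid genes tested were called with IL-1β, where only 0.632% of all genes were. Their median there was -0.71, with 10 below and 7 above 0.

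Megakaryocyte genes gave 2 calls of 14 tested in LK cells, both lower, where 2.57% of all genes were called lower. Vwf, von Willebrand factor, stood at 20.7 to 29.2 CPM with PBS and at 5.98 and 10.1 CPM with IL-1β (-1.58 ± 0.28, adjusted p = 0.0119). Slc14a1, a urea transporter that red cells also carry, fell by 1.13 ± 0.13 on the log2 scale (adjusted p = 0.00344). The median of the list was -1.34, with 13 of 14 below 0. In LSK cells the median of the list was -0.75, with 14 of 16 below 0. Unlike the erythroid list, the megakaryocyte list was lower in LK than in LSK cells under PBS (median -1.85). There 8 of 16 were called lower and 1 higher, beside 19.4% and 12.4% of all genes.

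**Figure D4:**
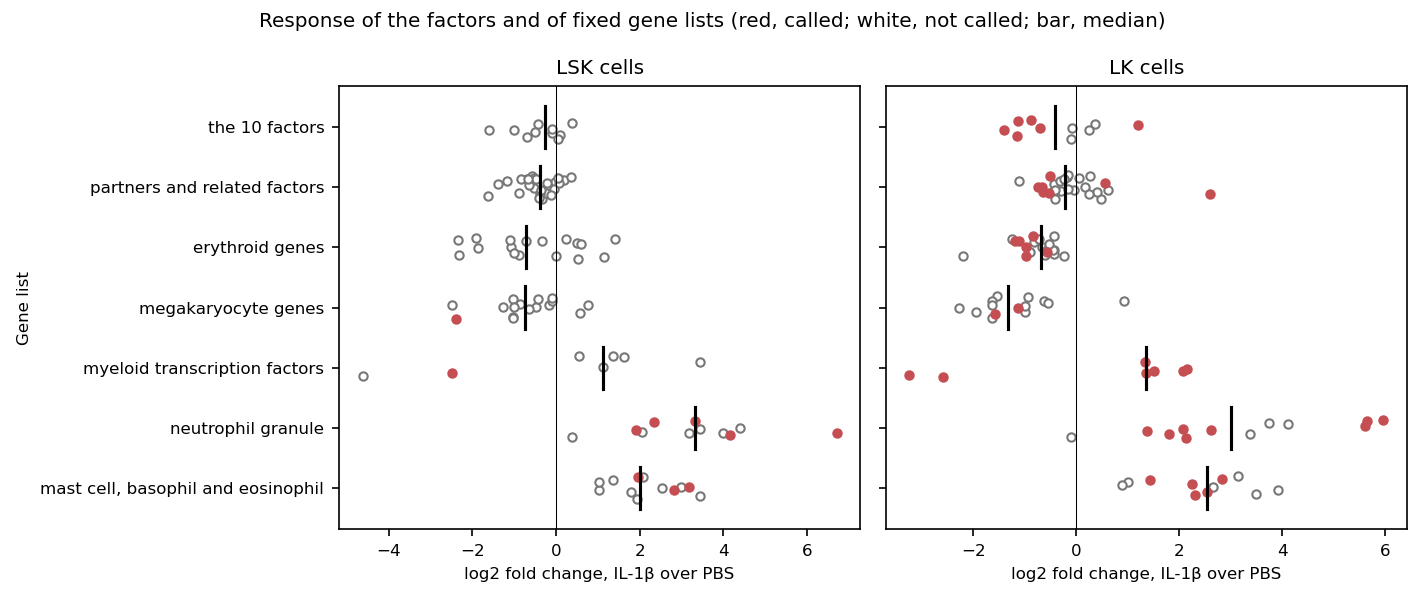
Each point is 1 tested gene and its log2 fold change of IL-1β over PBS (horizontal axis) in LSK (left panel) and LK cells (right panel), by gene list (vertical axis), with called genes in red and a bar at the median of the list. In LK cells the erythroid and megakaryocyte medians lie at -0.69 and -1.34, and those of the neutrophil granule and the mast cell, basophil and eosinophil lists at 3.00 and 2.54.

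Markers of granulocytic cells moved with the treatment in the same libraries, where 6.77% of all genes were called higher in LK and 0.32% in LSK cells. Neutrophil granule genes were called higher for 8 of 12 in LK and 5 of 11 in LSK cells, led by S100a9 (log2 fold change 5.97 ± 0.96) in LK and Lcn2 (6.71 ± 0.44) in LSK cells, both proteins of neutrophils. Their summed level went from 4535 to 9786 CPM with PBS to 18983 and 22312 CPM with IL-1β in LK cells, and from 2209 to 3209 CPM to 10183 and 12229 CPM in LSK cells. None of its genes was at 0 in every library of a group, though Camp and Mmp8 were at 0 in single libraries. Mast cell, basophil and eosinophil genes were called higher for 5 of 11 in LK and 3 of 12 in LSK cells, among them Fcer1a (2.83 ± 0.51) and Ms4a2 (3.19 ± 0.47), chains of the IgE receptor, in LK and LSK cells. Their sum was 276 to 587 CPM in LK PBS libraries and 4139 CPM in IL-1β replicate 1 against 2412 CPM in replicate 2, where the former is the library with the high Gata2, and Tpsb2 was at 0 in both. In LSK cells this sum went from 119 to 154 CPM with PBS to 580 and 430 CPM. Myeloid transcription factors were called in LK cells for all 7: Cebpe (2.15 ± 0.30), Gfi1, Cebpb, Spi1 and Cebpa rose, and Klf4 (-3.25 ± 0.67) and Irf8 (-2.59 ± 0.38) fell (log2 fold changes). In LSK cells 1 of the 7 was called, Irf8 (-2.48 ± 0.35). The part of these shifts in the values of the 10 factors was not tested, and in bulk libraries fewer erythroid and megakaryocyte progenitors cannot be told apart from less RNA of these factors per cell.

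In the same LK libraries the summed erythroid genes went from 6451 to 8703 CPM with PBS to 4051 and 4628 CPM with IL-1β. The megakaryocyte sum overlapped, with 314 to 390 CPM against 345 and 216 CPM. Itga2b, which encodes the integrin αIIb of megakaryocytes and early progenitors, is on this list and stood at 69.6 to 97.6 CPM with PBS and at 97.1 to 209 CPM with IL-1β. Of the platelet glycoprotein genes in LK cells, Gp1bb was at 0 in all libraries, Gp6 reached at most 0.133 CPM, and Gp5 stood at 21.1 to 38.6 CPM with PBS and at 10.5 to 19.9 CPM with IL-1β. Of 8 stem cell markers tested in LK cells, 1 was called in each direction, Hoxa9 (1.00) and Mllt3 (-0.98). In LSK cells 1 of 10 was called lower, Hlf (-2.08 ± 0.31). Of the endothelial list 1 of 8 genes tested, Robo4, was called lower in LSK cells, and 0 of 5 were called in LK cells. The macrophage list had 1 lower call of 6 in LK cells (Csf1r, -2.49 ± 0.40) and 0 of 6 in LSK cells. The mesenchymal list had 1 higher call of 4 in LK cells (Thy1, 3.24 ± 0.46) and 0 of 5 in LSK cells. The B cell and T cell lists had no call in either population, with only 2 and 1 genes tested. Of all genes, 6.77% were called higher and 2.57% lower in LK cells, and 0.32% and 0.312% in LSK cells.

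**Figure D5:**
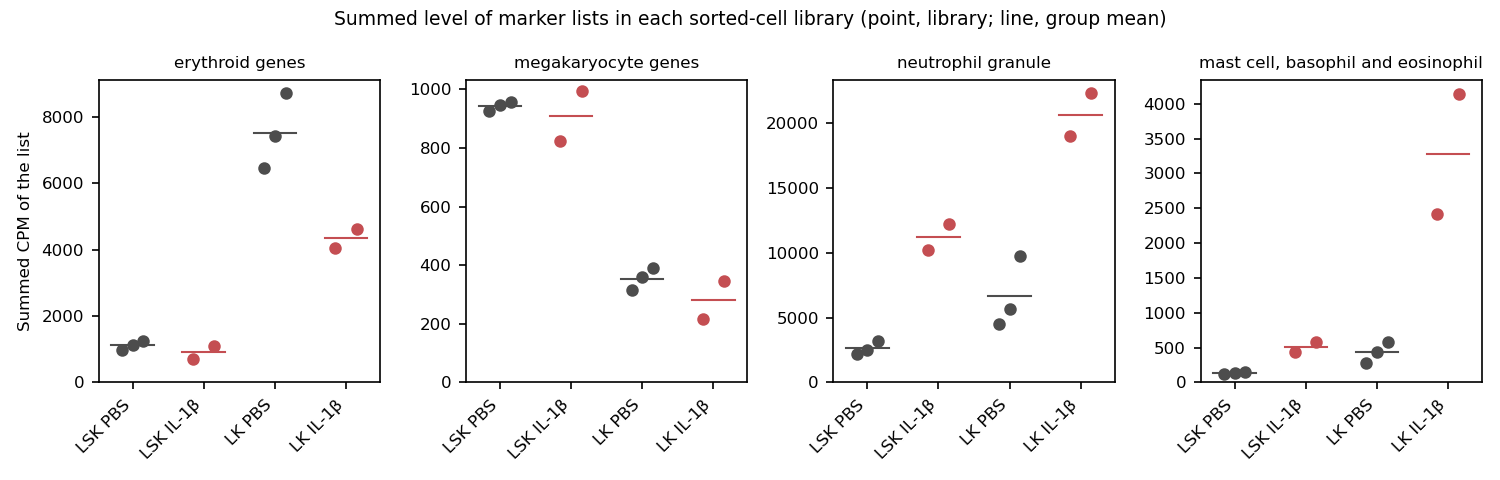
Summed CPM (linear axes from 0) of 4 marker lists in each of the 10 sorted-cell libraries, with a point per library, a line at the group mean, PBS in grey and IL-1β in red. In LK cells both IL-1β points lie under the PBS points for erythroid genes, overlap them for megakaryocyte genes, and lie above them for both granulocytic lists.

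The profile of Gata1 over the 10 sorted libraries was compared with that of every other gene as the root mean square difference of centred log2 CPM, among 11028 profiles. Acss1 (0.146), Necap2 (0.152), Tnfaip2 (0.160), Slc25a38 (0.168) and Ttll12 (0.168) were the most alike. Of the other factors Tal1 was the nearest, with a difference of 0.57 and rank 832, followed by Zfpm1 at rank 1829 and Gfi1b at rank 3543. Fli1 was the least like it, at rank 9841. The points are 10 libraries of 4 groups that share their treatments and depths.

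MSC cultures, in which macrophage markers were also present, differed in which factors they had. Which cells of the cultures held the RNA of a factor was not tested. Lmo2, Runx1 and Fli1 were expressed, Lmo2 at 164 to 173 CPM, Runx1 at 85.0 to 103 CPM and Fli1 at 50.3 to 66.5 CPM over the 4 libraries. Tal1 stood at 16.7 to 22.9 CPM and Zfpm1 at no more than 14.7 CPM. Gata1, Klf1 and Gfi1b had 5 counts or fewer in every library and were at 0 in 3, 2 and 3 of the 4. Nfe2 was at 0 counts with PBS in both and at 21 and 6 counts with IL-1β. None of the 6 factors with enough counts was called with IL-1β by edgeR, DESeq2 or limma-voom, against 11.4% of 13239 genes by edgeR. At an unadjusted p under 0.05 there was 1, Gata2, which was lower as were 14.1% of all genes. It had 10 and 68 counts with PBS (1.67 and 5.12 CPM) and 39 and 12 counts with IL-1β (1.28 and 1.06 CPM). The log2 fold change was -1.58 ± 0.58 (adjusted p = 0.135), which was -2.07 and called without PBS replicate 2 (adjusted p = 6.2e-05) and -0.46 without PBS replicate 3 (adjusted p = 0.608). Fli1, which rose in LK cells, gave 0.21 ± 0.13 in MSC (adjusted p = 0.317). Of the lists, the partners had 2 higher calls of 22 tested (Ikzf1 0.63, Etv6 0.50), and the macrophage list 6 of 10. The megakaryocyte list had 2 higher and 1 lower of 7 (Ppbp and Pf4, and Itgb3), and the erythroid list 0 of 4. Of all genes, 7.14% were called higher and 4.31% lower, and the higher calls of the partners are close to that share. These cultures differ from the sorted cells in genotype, cell type, dose route and time, so their values are set beside those of sorted cells and not tested against them.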

How the data were processed

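Counts of read pairs per gene were deposited by the authors, without normalization. Per the labels and methods, RNA was depleted of rRNA, and reads were trimmed with fastp 0.20.0, aligned with HISAT2 2.0.1 to GRCm38 and counted with featureCounts 2.0.2 on Ensembl release 100, strand-specifically. The methods also name GenomicAlignments. Symbols for 55141 identifiers came from GENCODE M21.

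Here genes were filtered with filterByExpr, normalized by TMM and tested across all genes with edgeR 4.0.16 in R 4.3.3 (glmQLFit with robust estimation, glmQLFTest, two-sided, Benjamini-Hochberg adjustment). IL-1β was compared with PBS within LSK, LK and MSC libraries, and LK with LSK cells, and their responses, in 1 fit of 10 libraries. SE is the log2 fold change divided by the square root of F. Alternatives were DESeq2 1.42.0, limma-voom (limma 3.58.1), DESeq2 size factors, other filters, blocks, other sets of libraries and each library left out. The tests were checked on simulated data with changes larger than the IL-1β responses of the factors in LSK and LK cells. How often smaller changes are found was not tested. Figures were drawn with matplotlib 3.10.9.

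The factors and lists were chosen with earlier results of these data known. All 10 factors are named, and of each list up to 3 called genes with the largest change, or the 1 with the smallest p. Bach1, Ssbp3, Tcf3, Mafk, Ank1, Car1, Ermap, Cebpa, Cebpb, Spi1, Gfi1, Itga2b, Gp1bb, Gp5 and Gp6 were named in addition after their values were seen. Deviations from group means correlated between LSK and LK libraries of 1 number (r = 0.211, 0.128 and 0.472 with PBS, 0.100 and 0.100 with IL-1β). Pairs of unlike number with PBS gave -0.381 to 0.162, which overlaps these values. The 2 IL-1β values are equal by construction, with 2 libraries per group. A replicate block was therefore applied only as an alternative, and it changed no call of a factor between the populations. A further MSC library named in a file header was not analysed here. The result of 1 listed megakaryocyte gene is not reported here.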

Additional observations from a re-analysis of the deposited data

Results flagged for a closer look

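Runx1 was picked out because its libraries moved opposite ways in the populations: both LSK IL-1β libraries were below every LSK PBS library, and both LK IL-1β libraries were above every LK PBS library. Each order is common, with 22.8% of all genes tested in LSK cells having the former and 23.4% in LK cells the latter. The log2 response of LK minus that of LSK cells was 1.00 ± 0.34 (SE). The test of this difference (edgeR, interaction) gave an adjusted p of 0.241, so it did not pass the correction over all genes, and neither response passed the test alone (adjusted p = 0.255 in LSK and 0.219 in LK cells).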

How the results depend on the processing

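The number of factors called in LSK cells, 0, became 1 with DESeq2 and with the replicate block, 2 with no filter on low counts and in the joint fit of 10 libraries, and 0 to 2 with 1 library left out. Gfi1b was among the calls wherever any factor was called, which included only 2 of the 5 fits without 1 library. Zfpm1 was called in the fits with 2. All genes called there went from 42 higher and 41 lower to 410 and 481 with DESeq2, 19 and 2 with limma-voom, 355 and 514 with no filter, 314 and 388 with the block and 547 and 681 in the joint fit. In LK cells 6 became 0 to 6 with 1 library left out and 4 in the joint fit, where Klf1 and Fli1 were lost (adjusted p = 0.179 and 0.108), and was 6 under the other alternatives, with all genes at 869 higher and 330 lower, 1462 and 869 with the block, 421 and 68 in the joint fit and 1151 and 693 with no filter. LK over LSK under PBS, 10, became 7 to 10 with 1 library left out and was 10 otherwise, and under IL-1β 3 became 6 with DESeq2, which added Gata1, Gata2 and Lmo2, 1 with limma-voom, 2 within that treatment only, and 1 to 3 with 1 library left out (all genes 314 and 295, 682 and 655 with DESeq2, 122 and 60 with limma-voom, 694 and 716 with no filter, 486 and 491 within the treatment). The 0 calls for the difference of responses became 1 with DESeq2, 3 with no filter, and 0 to 2 with 1 library left out (all genes 3 and 1, 218 and 116 with DESeq2, 228 and 170 with no filter, 23 and 1 with the block, 0 and 1 with limma-voom). In MSC 0 became 2 with no filter (Gata2 and Nfe2, adjusted p = 0.0197 and 0.0221, all genes 1439 and 915 against 945 and 570) and 0 to 1 with 1 library left out. Directions turned with 1 library left out, where log2 values ranged from -1.11 to 0.71 for Klf1 in LSK cells and from -1.86 to 0.036 for its difference of responses (lowest and highest without LSK IL-1β replicates 2 and 1, and 1 and 2), from -0.022 to 0.66 for Gata2 in LK cells and from -0.10 to 0.57 for its difference (without LK IL-1β replicates 1 and 2), and in MSC from -0.54 to 0.082 for Zfpm1 and from -0.42 to 0.032 for Tal1 (without PBS replicates 3 and 2, and 2 and 3). The cause was not tested. With no filter the median of all genes was -0.26 in LSK and -0.13 in LK cells, against -0.06 and -0.03. PBS and IL-1β libraries of a population share only a number (r = 0.126 and -0.03 in LSK, -0.10 and 0.033 in LK cells), and that block gave 1 call in LSK and 6 in LK cells. No paired analysis was possible in MSC because only 1 number is shared. The lowest count of a factor in sorted cells, 62 read pairs, was that of Gfi1b in the shallow LSK IL-1β replicate 2.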
